A study of Mus musculus with 3 samples.

Results

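The comparison set the array whose label names a tumor against the array whose label names cultured tumor cells given a high dose of doxycycline, in a mouse model of clear cell sarcoma. These are 2 of the 3 arrays of the series, and they were picked out by their titles. All probe sets with 1 gene symbol entered, which were 21789 of the 28856 on the array, and they stand for 19938 genes. Every group has 1 array of total RNA, so no difference was tested, and all folds and counts describe these arrays without a p-value. The mice carried a doxycycline-inducible EWS/ATF1 transgene in a mixed stock of strains (C57/BL6, 129, ICR), and every label gives the material as tumor cells of a soft tissue sarcoma. The tumor came from a mouse that had received doxycycline for 3 months. The cultured cells received doxycycline at 0.2 microg/ml during 24 h. Those of the third array, labelled control, received 0 microg/ml over the same 24 h. The labels state no age, no sex, no promoter for the transgene, and no number of animals or clones behind a culture. The description lines carry the number 1281 for the tumor and 1297 for both cultures, with no word on what the number means.

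In the fusion protein, a transcription-activating segment of the RNA-binding protein EWSR1 is coupled to the DNA-binding domain of ATF1. ATF1 belongs to the CREB family, whose members bind the cyclic AMP response element and normally need phosphorylation to activate genes such as Fos and the Nr4a receptors. The fusion is the hallmark of human clear cell sarcoma, a tumor of tendons and soft tissue with some features of neural crest cells. In a cell that divides, E2F factors switch on DNA replication genes before the S-phase, and a second wave of genes for mitosis follows through the CHR element.

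Both arrays compared, 1 of them labelled tumor, had lower summed marker intensities than the third for macrophages, endothelium, skeletal muscle and connective tissue. The arrays are called tumor-labelled, doxycycline-labelled and control-labelled here. Of 20 macrophage and myeloid markers, the number brighter than the array median was 1 on tumor-labelled, 2 on doxycycline-labelled and 20 on control-labelled. Their summed intensities were 2236, 3360 and 36847 in that order. For the 16 endothelial genes, the summed intensity was 3451 on tumor-labelled, 4254 on doxycycline-labelled and 17617 on control-labelled, and 3, 3 and 15 of them lay above the array median. For 16 skeletal muscle genes the sums were 3197, 3347 and 37604 in the same order, with 5, 6 and 15 genes above the median. The 18 fibroblast and connective tissue genes summed to 11066, 10126 and 73563, but 13, 12 and 17 of them lay above the median. No red blood cell gene of 4 and no adipocyte gene of 7 lay above the median on the tumor-labelled or the doxycycline-labelled array. On control-labelled 2 and 3 did. Keratinocyte genes differed from this pattern, with 2 of 9 above the median on tumor-labelled, 2 on doxycycline-labelled and 1 on control-labelled. The genes Lyz2 (lysozyme of macrophages) and Cdh5 (cadherin of endothelium) had intensities of 64.8 and 106 on the tumor-labelled array, against an array median of 219.8. The part of these cell types in the differences reported here was not tested. In RNA from a bulk sample, fewer cells of a type and less RNA per cell cannot be told apart. The Y-linked gene Eif2s3y had 1723 on tumor-labelled, 1643 on doxycycline-labelled and 279 on control-labelled, and Uty had 1031, 929 and 178, so that these genes were brighter on the same pair of arrays. An exchange of the labels tumor and control was not tested and cannot be decided from these files; every direction given here follows the labels as deposited, and with exchanged labels the comparison would be of the cultures without and with doxycycline.

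**Figure D1:**
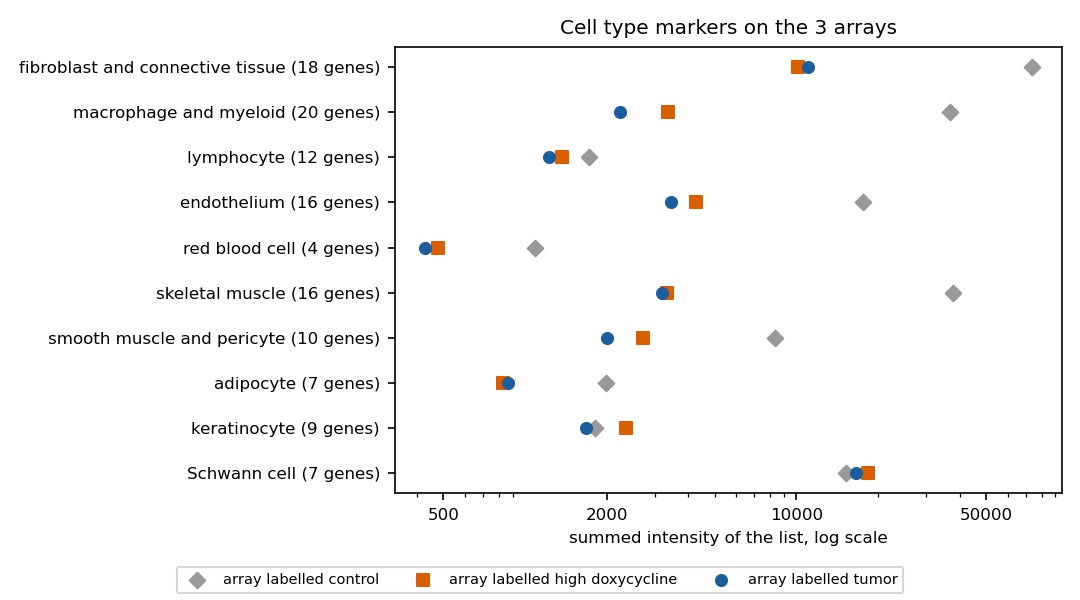
Summed intensity (log scale) of each cell type marker list on the 3 arrays, 1 point per array. The tumor-labelled and doxycycline-labelled points lie close together for skeletal muscle (3197 and 3347), and the control-labelled point lies far above them (37604).

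Few genes differed between the tumor-labelled and the doxycycline-labelled array. A gene was compared where at least 1 of both arrays showed it above its own median probe set, which held for 11220 genes. The other 8718 were dim on both. On the log2(intensity + 1) scale, on which all differences and folds are given, the tumor-labelled array was brighter by 2-fold or more for 177 genes (1.58%) and dimmer for 217 (1.93%), together 394 (3.51%). With no brightness filter the counts were 180 of 19938 (0.903%) and 228 (1.14%). By the same rule 28.6% of genes differed by 2-fold in either direction between tumor-labelled and control-labelled, and 25.8% between doxycycline-labelled and control-labelled. Of the 11220 genes, 2952 (26.3%) held exactly the same value on both arrays, 33% lay above 0 and 40.6% below it. Percentiles 5 and 95 of the differences were -0.56 and 0.53. A margin of 4-fold was reached by 16 brighter genes (0.143%) and 28 dimmer genes (0.25%).

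The arrays hold no replicate, so the error of a difference between them could not be measured. Probe sets of 1 gene read the same RNA on the same arrays. Their disagreement holds no variation between animals, cultures or hybridizations. Over 650 genes with several bright probe sets, the median disagreement was 0.055 on the log2 scale, and 5 genes (0.769%) disagreed by 1 or more. Among these genes 12 were past 2-fold, and for 7 of them every bright probe set was. The share past 2-fold was 4.67% among the dimmest 2805 compared genes and 2.07% among the brightest 2805. The 12 measured reference genes, used as stable controls in many tissues, had a median difference of 0 and ranged up to 0.60 for the transferrin receptor gene Tfrc, with Actb at -0.04 and Tbp at 0.00.

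**Figure D2:**
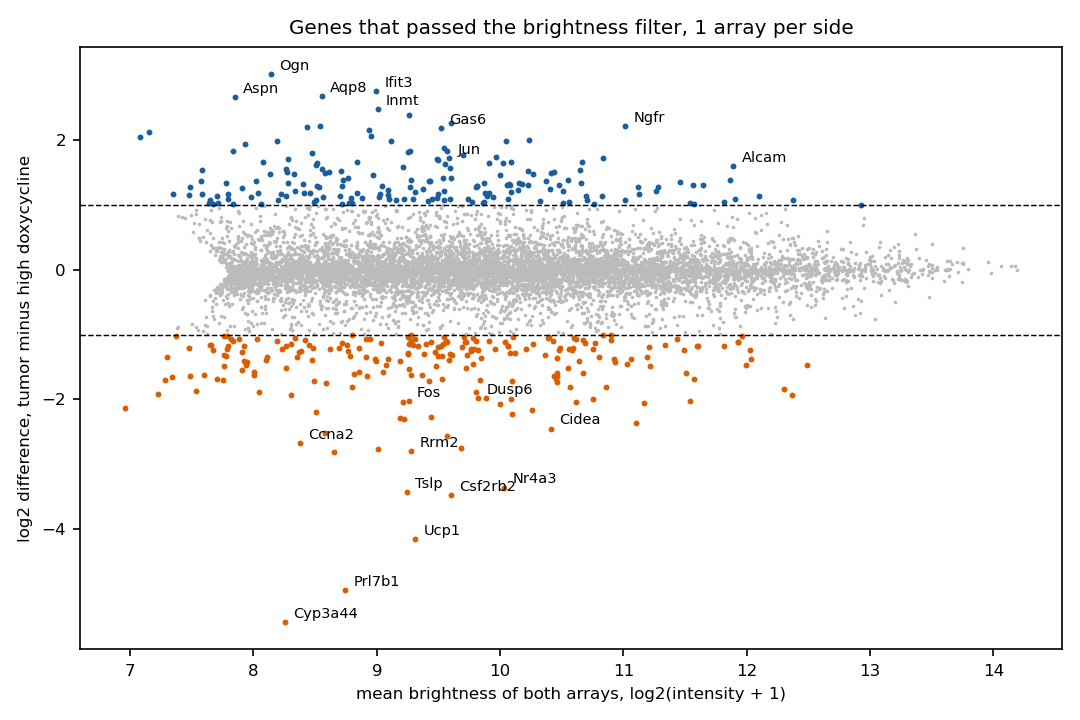
Log2 difference (tumor-labelled minus doxycycline-labelled) of 11220 genes against the mean log2(intensity + 1) of both arrays, 1 point per gene. Dashed lines mark 2-fold; 177 blue points lie above and 217 orange points below them, spread over most of the range, with few among the brightest genes.

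Among the genes of the fusion and its family, the differences were small except for Crem. Atf1 had an intensity of 933 on tumor-labelled, 1063 on doxycycline-labelled and 1189 on control-labelled, and Ewsr1 had 1624, 1650 and 1660. The labels do not say whether these mouse probe sets also read the transgene. Crem, which encodes CREB-family activators and the repressor ICER, had 711 on tumor-labelled, 1610 on doxycycline-labelled and 464 on control-labelled. It was the only one of 10 measured family and coactivator genes past 2-fold (2.26-fold dimmer on tumor-labelled). Over all genes 1.14% were dimmer by 2-fold.

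Fos, the AP-1 subunit in the title of the series, was 4.07-fold dimmer on the tumor-labelled array. Its intensity was 302 there, 1234 on doxycycline-labelled and 1114 on control-labelled, so the tumor-labelled value stood apart from the other pair. Nr4a3, an orphan nuclear receptor gene, had 325 against 3357 on doxycycline-labelled and 3160 on control-labelled, a 10.3-fold difference. Its relatives differed less: Nr4a1 had 2165 on tumor-labelled and 1955 on doxycycline-labelled, and Nr4a2 had 1436 and 1851. Of 32 measured immediate early and AP-1 genes, 4 were at least 2-fold dimmer on tumor-labelled (1.14% over all genes) and 1 was brighter (0.903%), with a median of -0.092 against 0 over all 19938 genes. Beside Fos and Nr4a3, the dimmer ones were Ier3 (361 against 1040 on doxycycline-labelled, 2.88-fold) and the small Maf factor gene Maff (256 against 598, 2.33-fold). Jun, the partner of Fos in AP-1, went the other way, with 1396 on tumor-labelled, 421 on doxycycline-labelled and 710 on control-labelled (3.31-fold brighter). Among other AP-1 genes, Fosl2 had a log2 difference of 0.95, Junb of -0.05 and Fosb of -0.05. The 25 measured targets of CREB and ATF1 share Fos, Crem and several Nr4a genes with the lists above. Of them 3 were dimmer by 2-fold and 2 brighter, against 1.14% and 0.903% over all genes, and the median was 0. The brighter ones were Rgs2 (5153 against 2504), a brake on G-protein signalling, and the coactivator gene Cited2 (11019 against 5485).

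The promoters of Fos and Nr4a3 are shown because both are textbook targets of CREB-family factors. Both genes were dimmer on tumor-labelled than on doxycycline-labelled and control-labelled, where their values were close. The 250 bases before the RefSeq start site are given in build GRCm38.p6 on the strand of the gene, at chr12:85473640-85473889 (plus strand) for Fos and chr4:48045055-48045304 (plus strand) for Nr4a3. Capitals mark the half-site of the cyclic AMP response element, TGACG, read on either strand as TGACG or CGTCA.
Fos: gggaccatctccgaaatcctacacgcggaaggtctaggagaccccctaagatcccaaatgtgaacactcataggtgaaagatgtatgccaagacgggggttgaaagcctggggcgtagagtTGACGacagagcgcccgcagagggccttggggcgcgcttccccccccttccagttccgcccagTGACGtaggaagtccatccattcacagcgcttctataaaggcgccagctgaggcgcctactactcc
Nr4a3: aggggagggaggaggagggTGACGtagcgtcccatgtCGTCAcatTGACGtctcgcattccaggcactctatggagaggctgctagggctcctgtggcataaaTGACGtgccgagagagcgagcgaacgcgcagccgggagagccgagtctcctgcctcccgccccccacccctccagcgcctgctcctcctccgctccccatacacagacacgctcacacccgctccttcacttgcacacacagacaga
The Fos stretch holds 2 half-sites, which begin 129 and 66 bases before the start. The Nr4a3 stretch holds 4, beginning 231, 213, 205 and 147 bases before it. Over windows of 300 bases (250 before to 50 after the start), 30.3% of 165 dimmer genes with a promoter in the table held a half-site, 23.8% of 143 brighter genes, 36.5% of 9066 compared genes and 23% of all 27025. The full element TGACGTCA, which contains the half-site, stood in 3.64% of dimmer, 3.50% of brighter and 3.73% of compared genes, and in 2.03% of all promoters. A match of letters is a description and not a binding site.

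In the ERK pathway, the phosphatase gene Dusp6, which switches ERK off and is itself induced by ERK, was 3.94-fold dimmer on the tumor-labelled array (455 against 1794, and 3435 on control-labelled). The ETS factor gene Etv1 was 2.14-fold brighter (1566 against 730), with 1.10 and 1.13 on the log2 scale for its 2 probe sets. Other ERK target genes stayed inside 2-fold: Etv4 had a log2 difference of -0.87, Dusp4 of -0.83, Etv5 of -0.73, Spred1 of -0.71 and Phlda1 of 0.93. Of 18 measured genes of this list 11 lay below 0 and 4 above, with a median of -0.22 that turned to 0.0421 when only genes above percentile 75 of brightness were kept. Hbegf, an EGF-family ligand, was 2.16-fold dimmer (471 against 1018). Of 26 measured genes in the list of EGF family ligands and secreted growth factors Hbegf alone passed 2-fold, against 1.14% dimmer over all genes. Fgf15 and Vegfd, growth factor genes outside this list, also passed 2-fold and are given below.

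Cell cycle genes were dimmer on the tumor-labelled array, and mitosis was the list with the most members past 2-fold. Of 51 measured G2/M and mitosis genes, 49 had a value below 0, 20 were at least 2-fold dimmer and 0 were brighter by that margin, against 1.14% dimmer over all genes. Their median was -0.88, or -0.99 over the 33 that passed the brightness filter. Since 12 of these 33 were bright on both arrays, most passed through the doxycycline-labelled array alone. Of 50 measured DNA replication and S-phase genes, 49 lay below 0, 11 were at least 2-fold dimmer and 0 brighter, and the median was -0.57. After a shift to a common median, the bright members of both lists had medians of -0.95 and -0.54. Probe sets of histone genes can share sequence between near-identical copies. Of 26 measured replication-dependent histone genes 6 were dimmer and 0 brighter, against 1.14% and 0.903% over all genes (median -0.14). Of the bright histone genes, 5 were dimmer by 2-fold as deposited and 3 after a shift to a common median or quantile normalization.

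Ccna2, the cyclin of S-phase and G2, had 130 on tumor-labelled, 840 on doxycycline-labelled and 553 on control-labelled, a 6.40-fold difference between the first 2. Bub1, a spindle checkpoint kinase gene, had 58.4, 260 and 94.0 in the same order (4.39-fold). The proliferation marker gene Mki67 had 90.2, 285 and 319 (3.14-fold), and on the tumor-labelled array it lay below the array median. Dimmer by 3.23-fold was Nuf2, a kinetochore gene (115 against 374), and by 3.09-fold the cytokinesis gene Anln (109 against 340). The mitotic kinase genes Plk1 (218 against 575) and Aurkb (301 against 768) differed by 2.63-fold and 2.54-fold. Cdk1, the kinase that starts mitosis, differed by 2.16-fold (716 against 1549). Top2a, a topoisomerase gene, was 2.50-fold dimmer on its brighter probe set (136 against 342), while its other probe set had a log2 difference of -0.05. Within the list the value of Smc4, a condensin gene, was 0.16 and that of Cdc25b 0.01, the 2 members above 0.

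Among replication genes the largest difference was that of Rrm2, the regulated subunit of ribonucleotide reductase, which makes DNA precursors. It had 234 on tumor-labelled, 1639 on doxycycline-labelled and 914 on control-labelled, 6.98-fold apart between the first 2. The histone chaperone genes Asf1b (208 against 706) and Chaf1b (357 against 952) differed by 3.38-fold and 2.66-fold, and Uhrf1, which maintains DNA methylation, by 3.09-fold (145 against 449). Subunits of the MCM helicase were dimmer to unequal degrees. Mcm5 (489 against 1211, 2.47-fold), Mcm2 (694 against 1685, 2.43-fold) and Mcm3 (234 against 544, 2.32-fold) passed 2-fold, while Mcm7 (-0.60), Mcm4 (-0.52) and Mcm6 (-0.33) did not. Pcna, the clamp of the replication fork, had 2974 on tumor-labelled and 4930 on doxycycline-labelled (log2 difference -0.73). On control-labelled it had 2120. Of 21 measured G1 cyclin, CDK and E2F genes 16 lay below 0, and 1 that was dim on both arrays, E2f8, was past 2-fold (92.0 against 196). E2f1 had -0.89, Ccne2 -0.84, Ccne1 -0.73 and Cdk4 -0.15.

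**Figure D3:**
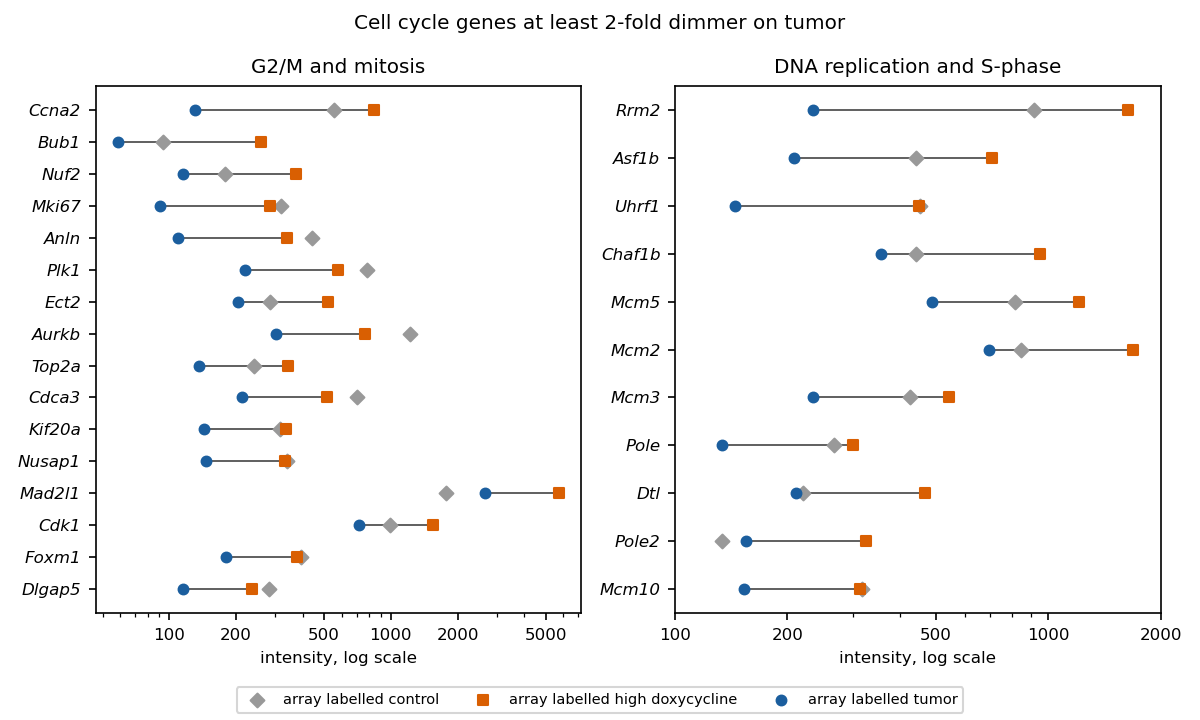
Intensities (log scale) of the 16 bright mitosis genes and 11 bright replication genes that were at least 2-fold dimmer on the tumor-labelled array, with 1 point per array. Tumor-labelled points are left of the doxycycline-labelled points by this choice; control-labelled points lie at varied positions, such as 553 for Ccna2 and 1220 for Aurkb.

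Promoters of 4 dimmer cell cycle genes are shown as picked examples, each marked for a single element named in the background. They are given as before, at chr8:75109259-75109508 (plus strand), chr1:191575545-191575794 (minus), chr10:69352913-69353162 (minus) and chr11:99024190-99024439 (minus). Capitals mark an E2F-like word (TTTGGCGC or TTTCCCGC, both strands) in Mcm5 and in Dtl, a ubiquitin ligase adaptor gene of the replication fork. In Cdk1 and Top2a they mark the CHR core (TTTGAA, both strands).
Mcm5: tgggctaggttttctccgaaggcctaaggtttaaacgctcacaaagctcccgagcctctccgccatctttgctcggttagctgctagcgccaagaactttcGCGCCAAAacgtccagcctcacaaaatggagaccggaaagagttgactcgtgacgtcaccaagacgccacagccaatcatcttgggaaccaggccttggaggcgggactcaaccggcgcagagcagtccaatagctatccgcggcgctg
Dtl: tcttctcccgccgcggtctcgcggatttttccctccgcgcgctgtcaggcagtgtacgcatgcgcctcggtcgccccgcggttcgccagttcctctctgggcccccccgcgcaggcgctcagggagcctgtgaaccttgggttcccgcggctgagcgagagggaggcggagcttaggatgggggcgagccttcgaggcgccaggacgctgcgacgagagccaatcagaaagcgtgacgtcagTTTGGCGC
Cdk1: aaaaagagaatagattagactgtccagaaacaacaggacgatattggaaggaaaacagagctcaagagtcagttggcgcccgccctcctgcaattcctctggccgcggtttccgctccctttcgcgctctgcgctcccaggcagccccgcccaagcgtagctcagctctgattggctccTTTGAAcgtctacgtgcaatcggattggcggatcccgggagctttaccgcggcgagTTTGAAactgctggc
Top2a: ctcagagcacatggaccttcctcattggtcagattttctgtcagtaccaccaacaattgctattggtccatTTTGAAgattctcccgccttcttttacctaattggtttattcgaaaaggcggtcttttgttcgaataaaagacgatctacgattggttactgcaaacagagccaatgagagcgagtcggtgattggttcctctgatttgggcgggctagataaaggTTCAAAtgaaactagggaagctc
The E2F-like word begins 149 bases before the start in Mcm5 and 8 bases before it in Dtl. Both stretches also hold the full cyclic AMP response element TGACGTCA, left in small letters. Its half-site stood in 48.6% of 37 bright replication genes and 20% of 25 bright mitosis genes, against 36.5% of 9066 compared genes. For the full element the shares were 5.41%, 0% and 3.73%. The CHR core begins 71 and 15 bases before the start in Cdk1, and 179 and 23 bases in Top2a. Over the 300-base windows, an E2F-like word stood in 6.67% of 165 dimmer genes, 0.699% of 143 brighter genes and 3.55% of 9066 compared genes, in 32.4% of 37 bright replication genes and in 1.8% of all 27025 promoters. The CHR core stood in 64% of 25 bright mitosis genes, against 13.3% of compared genes, 19.4% of dimmer genes, 18.2% of brighter genes and 20.2% of all 27025 promoters. Its share was 16.2% among the bright replication genes. The promoters of the dimmer genes Rrm2, Uhrf1 and Bub1 held neither an E2F-like word nor the CHR core. The CCAAT box (CCAAT, both strands) was held by 72% of the mitosis genes, 62.2% of the replication genes and 42.6% of compared genes. It stood in 45.5% of dimmer genes, 47.6% of brighter genes and 41.1% of all promoters. The CArG box, bound by serum response factor, was held by 3.03% of dimmer genes (5 of 165) and 1.40% of brighter genes. For compared genes the share was 1.6%, and for all promoters 1.81%.

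Of the CDK inhibitor genes, Cdkn2b and Cdkn2c were at least 2-fold brighter on the tumor-labelled array. Cdkn2b, which blocks CDK4 and CDK6, had 2032 on tumor-labelled, 706 on doxycycline-labelled and 645 on control-labelled (2.88-fold). Cdkn2c, of the same inhibitor family, had 2456, 1116 and 402 (2.20-fold). Cdkn2a had 1164 against 587, just under 2-fold (1.98), and Cdkn1b was nearly equal (6616 against 6124). Of 25 measured CDK inhibitor and p53 target genes, 5 were brighter by 2-fold and 0 dimmer, against 0.903% and 1.14% over all genes, and the median was 0.0044. With a pseudocount of 64, Eda2r (0.82 on the log2 scale) and Sesn1 (0.9996) were inside 2-fold. The p53 targets among them were Trp53inp1 (5044 against 2031), the receptor gene Eda2r (292 against 137) and Sesn1 (2159 against 1048). Mdm2, a classical p53 target, had 1589 on both arrays, and Gadd45a was lower on tumor-labelled (1278 against 2373), inside 2-fold.

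The largest single decreases included genes foreign to connective tissue. Cyp3a44, a cytochrome P450 gene of the liver, had 45.5 on tumor-labelled, 2014 on doxycycline-labelled and 82.8 on control-labelled, 43.4-fold lower on the first than on the second. Its probe set may share sequence with other Cyp3a genes. Prl7b1, a placental hormone gene of the prolactin family, had 76.2, 2380 and 298 in this order (30.8-fold). On control-labelled, Prl7b1 lay above the array median and Cyp3a44 below it. Both tumor-labelled values are far under their array median, and with a pseudocount of 64 the log2 differences were -4.25 for Cyp3a44 and -4.12 for Prl7b1, in place of -5.44 and -4.95, so these folds depend on the level near background. Ucp1, the uncoupling protein of brown fat, had 150, 2685 and 306 (17.8-fold), and Cidea, a lipid droplet gene of brown fat, 580, 3181 and 2569 (5.48-fold), while the adipocyte markers Fabp4 and Plin1 lay under the array median on both arrays. Apela, the gene of a peptide ligand of the apelin receptor, had 151 on tumor-labelled, 1068 on doxycycline-labelled and 95 on control-labelled.

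Genes of cytokine signalling stood among the largest decreases as well. Csf2rb2, a beta subunit of the interleukin-3 receptor, had 231 on tumor-labelled, 2591 on doxycycline-labelled and 4568 on control-labelled (11.2-fold); its near copy Csf2rb differed by -0.40 on the log2 scale. Tslp, a cytokine of barrier tissues, had 183, 1996 and 723 (10.8-fold). Cd14, a co-receptor for lipopolysaccharide best known from macrophages, had 158, 914 and 650 (5.75-fold), on arrays where the macrophage genes summed to 2236, 3360 and 36847. Fgf15, a fibroblast growth factor gene, differed by 6.80-fold (197 against 1346). Of 30 measured interleukin, TNF family and chemokine genes, Il15 alone was brighter past 2-fold (511 against 225) and Tslp alone dimmer. Over all genes 0.903% were brighter and 1.14% dimmer, and the median of the list was -0.081. Completing the 15 largest decreases were Aif1l (6.72-fold), Sptssb, a serine palmitoyltransferase subunit gene (5.91-fold), and P2rx3, an ATP-gated channel gene of sensory neurons (5.13-fold on its brighter probe set, but -0.84 on the log2 scale on the other).

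**Figure D4:**
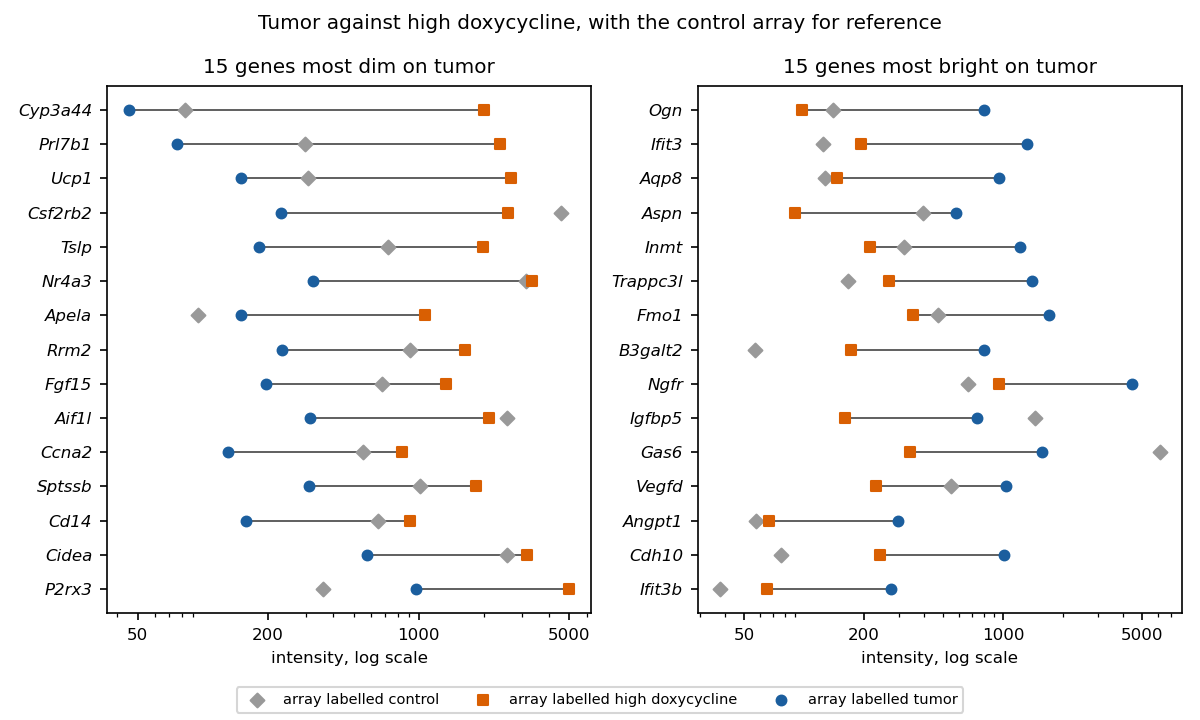
Intensities (log scale) of the 15 genes with the largest decreases and the 15 with the largest increases from the doxycycline-labelled to the tumor-labelled array, 1 point per array. The decreases reach 43.4-fold (Cyp3a44) and the increases 8.12-fold (Ogn).

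The largest increases held matrix, ligand and receptor genes. Ogn (osteoglycin) and Aspn (asporin), small proteoglycans of the matrix, had 804 and 579 on tumor-labelled and 98.1 and 90.4 on doxycycline-labelled (8.12-fold and 6.35-fold). On control-labelled Ogn had 141 and Aspn 395. Igfbp5, which binds insulin-like growth factors, was 4.63-fold brighter (745 against 160), and on control-labelled it had 1445. Gas6, the ligand of the receptor tyrosine kinase Axl, had 1565 on tumor-labelled, 342 on doxycycline-labelled and 6154 on control-labelled (4.57-fold). Axl itself had 1088, 514 and 2681 (2.12-fold). For both of this pair the highest value was that of control-labelled. Vegfd, a growth factor of lymphatic vessels, differed by 4.50-fold (1041 against 231), and Angpt1, a ligand of the endothelial receptor Tek, by 4.39-fold (297 against 66.9). On doxycycline-labelled, Ogn, Aspn, Igfbp5 and Angpt1 lay under the array median of 226.7, so their folds depend on the level near background. With a pseudocount of 64 their log2 differences were 2.42, 2.06, 1.85 and 1.46, in place of 3.02, 2.67, 2.21 and 2.13. Of 16 endothelial markers 3 lay above the array median on either array. Their differences were below 0 for 13 and above 0 for 3, with a median of -0.11. Egfl7 alone passed 2-fold (764 against 1574, dimmer), where 1.14% of all genes were dimmer. After a shift to a common median Egfl7 had -0.997 on the log2 scale.

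Enzyme genes among the largest increases were Inmt, a methyltransferase (1218 against 216, 5.62-fold), Fmo1, a flavin monooxygenase (1705 against 352, 4.83-fold), and B3galt2, a galactosyltransferase (801 against 172, 4.65-fold). Aqp8, a water channel gene, had 954 on tumor-labelled, 147 on doxycycline-labelled and 128 on control-labelled (6.45-fold). Trappc3l differed by 5.23-fold (1406 against 268). Ifit3, an interferon-stimulated gene, was 6.81-fold brighter (1328 against 194), and Ifit3b, a near copy whose probe set may share sequence with it, 4.13-fold (274 against 65.6). On doxycycline-labelled, Inmt, B3galt2, Aqp8, Ifit3 and Ifit3b also lay under the array median of 226.7. With a pseudocount of 64 their log2 differences were 2.20, 1.88, 2.27, 2.43 and 1.38, in place of 2.49, 2.22, 2.69, 2.77 and 2.05. Of 32 measured interferon-stimulated genes Ifit3 alone passed 2-fold, against 0.903% brighter over all genes. In that list 14 lay below 0, and the median was 0.

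Neural genes were brighter on the tumor-labelled array in part. Ngfr, the low-affinity neurotrophin receptor and a marker of neural crest cells, had 4450 on tumor-labelled, 957 on doxycycline-labelled and 669 on control-labelled (4.65-fold). Of 38 measured neural and synaptic adhesion genes 7 were brighter by 2-fold and 1 dimmer, against 0.903% and 1.14% over all genes. Their median was 0 over all 38 and 0.63 over the 17 that passed the filter, of which 14 were bright on both arrays. Lrrc4c, a synaptic adhesion gene, had 2410, 601 and 81.7 on tumor-labelled, doxycycline-labelled and control-labelled. Ncam2 had 2899, 910 and 54.3 (3.18-fold between the first pair), and Alcam 6609, 2183 and 277 (3.03-fold). In each of these 3 the control-labelled value was the lowest by far. Lrrc4 (2.79-fold) and Slitrk1 (2.49-fold) were brighter as well, and Lrrtm2 was dimmer (312 against 631), which became -0.97 on the log2 scale, inside 2-fold, after a shift to a common median. Cdh10, a type II cadherin gene of the brain, had 1015 against 241 (4.20-fold).

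In axon guidance 5 of 42 measured genes were brighter by 2-fold and 0 dimmer, against 0.903% and 1.14% over all genes, with a median of 0. The secreted guidance proteins Sema3d (478 against 124, 3.84-fold), Slit2 (1296 against 400, 3.23-fold) and Sema3c (3360 against 1489, 2.26-fold) were among them. So were Robo2, a receptor of Slit proteins (447 against 199), and the receptor gene Epha3 (395 against 172). With a pseudocount of 64 both receptors were inside 2-fold (0.96 for each on the log2 scale). The neuroendocrine list differed less. Of its 34 measured genes only the vesicle calcium sensor gene Syt1 passed 2-fold (426 against 201), and the median was 0.0090. Among 41 receptor and ion channel genes Cacna2d1, a calcium channel subunit, was brighter (4488 against 1753), with 1.36 and 1.17 on the log2 scale for its 2 probe sets. The serotonin receptor gene Htr2a was dimmer (1083 against 2271).

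Few identity genes passed 2-fold. Of 34 neural crest and mesenchymal regulators 2 were brighter by 2-fold and 2 dimmer, against 0.903% and 1.14% over all genes. Ngfr and Snai2 (371 against 170) were the brighter ones, and Foxc2 (476 against 1088) and Six2 (937 against 1926) the dimmer ones. Six2 had -0.99 with arrays shifted to a common median. None of 37 Hox genes, 22 clustered protocadherin genes and 16 pigment cell genes passed 2-fold. Melanocyte enzyme genes were dim, with Tyr at 55.1 on all 3 arrays and Dct at 81.2 on both arrays compared. Mitf, the regulator of pigment cells, had 1018 on tumor-labelled and 1344 on doxycycline-labelled. Of 7 measured Schwann cell genes 2 lay above the median on tumor-labelled, 2 on doxycycline-labelled and 5 on control-labelled. S100b had 4156 on tumor-labelled and 4256 on doxycycline-labelled, and Pmp22 had 11656 and 13198. Sox10 had 200 and 222, below the array medians of 219.8 and 226.7.

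Among Wnt genes 3 of 42 were dimmer and 0 brighter, against 1.14% and 0.903% over all genes, and the median was 0. The dimmer ones were the receptor genes Fzd10 (292 against 1205, 4.12-fold) and Fzd3 (305 against 705), and the ligand gene Wnt10a (932 against 2189). Of 21 measured targets of TGF-beta, YAP and BMP, 1 was dimmer and 1 brighter by 2-fold. In that list 10 genes lay below 0 and 7 above, with a median of 0. The dimmer one was Pmepa1, an inhibitor of TGF-beta signalling that this pathway induces (388 against 956, 2.46-fold), and the brighter one Axl. In the list of matrix proteases Mmp11 (2732 against 937, 2.91-fold) and Adamts5 (331 against 147) were brighter, and Mmp17 (2.60-fold) and the plasminogen activator genes Plau (172 against 439, 2.55-fold) and Plat (988 against 2302, 2.33-fold) dimmer. Itga9 (375 against 1155) and Itgb7 (1310 against 2778) were the dimmer ones of 30 integrin and laminin genes. Nfil3 was the only one past 2-fold of 18 circadian clock genes (771 against 1807). The shares of 1.14% dimmer and 0.903% brighter over all genes apply beside each of these lists. Of connective tissue genes Col6a1 was brighter (1249 against 584), while Col1a1 was nearly equal (332 against 343) and far below the 10030 of control-labelled.

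Metabolic and biosynthetic lists shifted by small amounts, mostly below 0. In cholesterol synthesis and uptake 18 of 20 measured genes lay below 0 with a median of -0.33, and Pmvk, a kinase of the mevalonate pathway, passed 2-fold (498 against 2091, 4.19-fold). Of 30 ribosome biogenesis genes 23 lay below 0 and 0 above (median -0.11), and of 18 aminoacyl-tRNA synthetase genes 14 and 0 (median -0.15). Neither list had a gene past 2-fold. After a shift to a common median these medians were -0.28, -0.07 and -0.10, and 5 cholesterol, 11 ribosome biogenesis and 5 synthetase genes then lay above 0. Psat1, an enzyme of serine synthesis, was the only amino acid response gene of 27 past 2-fold (587 against 1392). Hk2 was the only one of 29 hypoxia and glycolysis genes (610 against 1266, but -0.999 on the log2 scale under quantile normalization). Over all genes 1.14% were dimmer by 2-fold and 0.903% brighter. None of 58 ribosomal protein, 22 unfolded protein response, 14 fatty acid synthesis and 12 heat shock genes passed 2-fold. In oxidative phosphorylation, Cox7a1, a muscle form of a cytochrome oxidase subunit, was brighter (2098 against 878) and the median of 77 genes was 0.014.

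**Figure D5:**
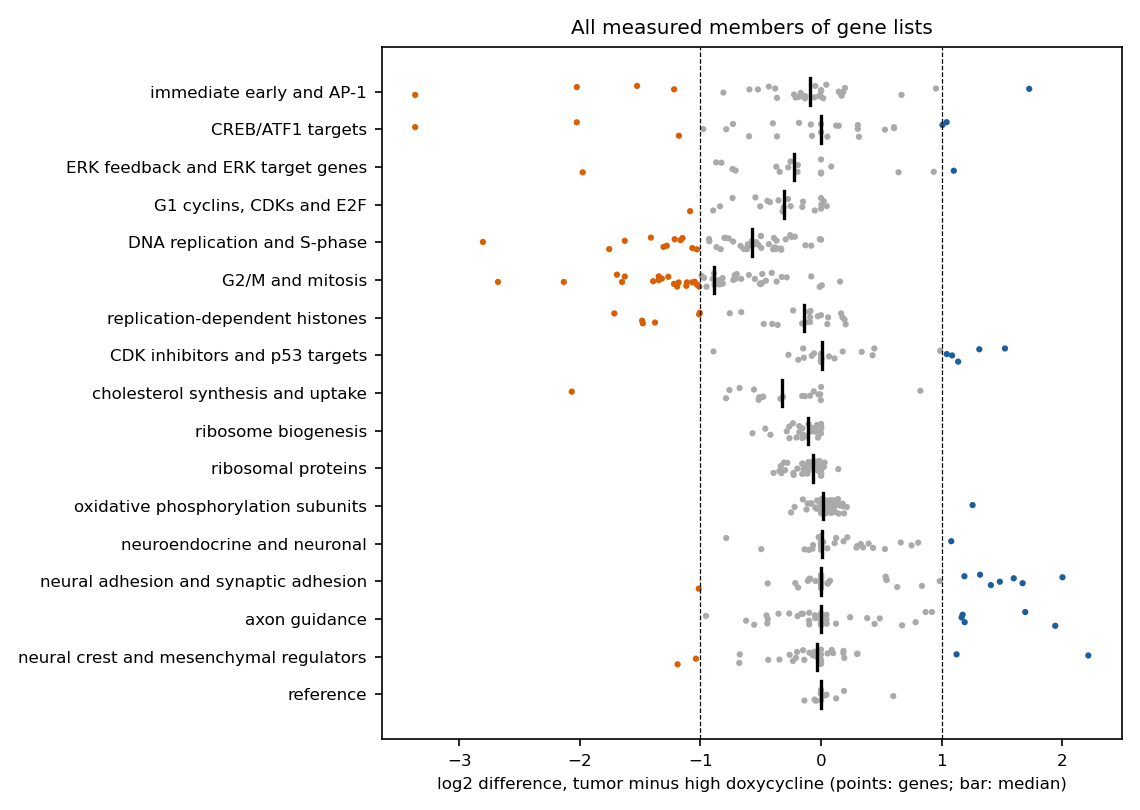
Log2 differences (tumor-labelled minus doxycycline-labelled) of all measured members of 17 gene lists, 1 point per gene, with the median as a bar and 2-fold as dashed lines. The mitosis list (median -0.88) and the replication list (-0.57) lie below 0 nearly as a whole, while the neural adhesion list has its median at 0 and 7 members beyond 2-fold on the right.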

How the data were processed

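Expression was measured on Affymetrix mouse gene arrays with biotin-labelled total RNA, per the labels. Each probe set has 1 deposited intensity per array, in linear units; the authors' background correction, summary and normalization are not described in the labels or the file header. Over all 28856 probe sets they run from 20.7 to 21922 on the tumor-labelled array and from 21.0 to 21362 on the doxycycline-labelled array, 34.6% of values being equal on both. Genes were named through the platform annotation; 1621 probe sets with more than 1 symbol and 5446 with no symbol did not enter. Where a gene had more than 1 probe set (999 genes), its brightest by mean of the 3 arrays stood for it. Differences were taken between log2(intensity + 1) values of the deposited table. Those of dim genes can be understated and depend on the level near background. With 1 array per group there is no test. The number of arrays limits the precision. A call is a log2 difference of 1 or more, or of -1 or less. Promoters and gene symbols are those of RefSeq (GRCm38.p6); all motif counts are by exact letters. Computation used Python 3.11.15 and pandas 2.3.3 and was tested on simulated data.

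The comparison, members and 48 gene lists were chosen with earlier results of these data known, and 8 further lists after the values had been seen. Genes were named by a rule: Fos, Atf1 and Ewsr1, the 15 largest increases and decreases without provisional, receptor-family and small RNA symbols, up to 5 members of each list past 2-fold in each direction, and 3 leading markers of each cell type. Other genes named were chosen after their values were seen, to show list members inside 2-fold or near copies. Alternatives were quantile normalization, a shift to a common median, a brightness limit at percentile 75 or none, the mean of probe sets, genes with a single probe set, pseudocounts of 16 and 64, and 1.5-fold and 4-fold limits.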

Additional observations from a re-analysis of the deposited data

How the results depend on the processing

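The counts of 177 brighter and 217 dimmer genes stayed within 1.5 times under both scalings, without the brightness filter, for other ways to treat probe sets and for larger pseudocounts. They were 103 and 144 with brightness above percentile 75, 473 and 527 at 1.5-fold, and 16 and 28 at 4-fold. The median of the ERK list turned to 0.0421 above percentile 75 of brightness, and that of the pigment cell list to 0.0451 as a mean of all probe sets and also over single-probe-set genes. Of 98 named genes past 2-fold, 93 stayed past it with arrays shifted to a common median, 92 under quantile normalization, 96 with a pseudocount of 16 and 81 with 64, and all 98 kept their sign in these settings. The genes lost to the common median were H2ac15, H1f1, Lrrtm2, Six2 and Egfl7, all of them just past 2-fold; quantile normalization lost these but Egfl7, and Hk2 and Pvalb. A pseudocount of 64 lost all of these and Cited2, Il15, Eda2r, Sesn1, Syt1, Epha3, Robo2, Snai2, Axl and Adamts5. No paired analysis was possible because each group has 1 array, and for the same reason no replicate could be left out. Differences of dim genes can be understated, since signal over background limits what an array can show. They also spread more, with an SD of 0.44 among the dimmest 2805 compared genes and 0.32 among the brightest 2805.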

Other observations

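The following lists were written after the values had been seen, with textbook members and not only those that differed, so their counts describe these arrays and support nothing. Of 17 measured targets of FOXO factors, which act when insulin and growth factor signalling is low, 6 were at least 2-fold brighter on the tumor-labelled array and 0 dimmer, against 0.903% and 1.14% over all genes, with a median of 0.28. Txnip, an inhibitor of thioredoxin, had 2140 on tumor-labelled, 822 on doxycycline-labelled and 2017 on control-labelled (2.60-fold between the first pair). The ubiquitin ligase gene Fbxo32 had 2428, 923 and 1716 (2.63-fold), and Pik3ip1, an inhibitor of PI3-kinase, 1407, 571 and 901 (2.46-fold). Pdcd4 had 6531, 2956 and 457, and Sesn3 4330, 2133 and 2487. Irs2 (-0.55) and Gadd45a (-0.89) lay on the other side.

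Of 21 measured genes of lipid breakdown, 3 were brighter and 2 dimmer by 2-fold, against 0.903% and 1.14% over all genes. Cpt1a, the gate of fatty acid entry into mitochondria, had 1708 against 686 (2.49-fold), the triglyceride lipase gene Pnpla2 2569 against 1016 (2.53-fold) and the lipid droplet gene Plin4 1333 against 447 (2.98-fold), and the dimmer ones were Ucp1 and Cidea. Among 12 small leucine-rich proteoglycan genes 9 lay above 0 and 0 below, with a median of 0.60. Dcn (decorin) had 491 on tumor-labelled, 267 on doxycycline-labelled and 4867 on control-labelled, so the levels of both arrays compared were far below the third. In the cadherin family Cdh9 (2.81-fold) and Cdh18 (3.15-fold) were brighter beside Cdh10, and Cdh23 was dimmer (2.80-fold). Of 28 centromere and condensin genes 5 were dimmer by 2-fold and 0 brighter, against 1.14% and 0.903% over all genes. Among the dimmer ones were Ncaph (2.79-fold), Cenpu (2.68-fold), Cenpn (2.61-fold) and Cenph (2.54-fold). Of 7 IGF binding protein genes Igfbp4 (2.50-fold) was brighter beside Igfbp5, against 0.903% over all genes. Of 10 TAM and angiopoietin genes 3 were brighter (Gas6, Axl and Angpt1), against 0.903% over all genes, and Angpt2 had -0.79. Of 10 VEGF ligand and receptor genes Vegfd alone passed 2-fold, against 0.903% brighter over all genes. Esr1, the estrogen receptor gene, had 1436 on tumor-labelled, 387 on doxycycline-labelled and 218 on control-labelled (3.70-fold), and Fst, the activin-binding follistatin, 1476, 6011 and 3654 (4.07-fold dimmer on tumor-labelled).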
